A study of Mus musculus with 10 samples.

Results

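The genes described here are 9 that are known for the sensing of blood flow by endothelial cells or for the response to it: the transcription factors Klf2, Klf4 and Klf6, the cation channels Piezo1 and Trpv4, the polycystins Pkd1 and Pkd2, the water channel Aqp1 and the peptidase inhibitor Pi16. They were chosen by name, with earlier results of these data known, as 9 of the 55385 genes in the deposited tables. All 9 were among the 15043 genes that passed a filter on low counts in at least 5 libraries. RNA came from mouse hepatic endothelial cells, which had been enriched from the liver by a Nycodenz density gradient and then with magnetic beads against the surface protein CD146. There were 5 libraries labelled Alk1-HEC-KO, of genotype KO, and 5 labelled Control, of genotype WT. The series describes the KO mice as Alk1 knockouts, and Alk1 is another name of Acvrl1, which encodes the receptor ALK1. No treatment is named for either group. The sources used here do not give the age and strain of the mice, the promoter behind the deletion, the deleted exons or the number of animals behind each library. P-values therefore measure the spread between these libraries, which may be technical.

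Endothelial cells read the drag of flowing blood through channels, receptors and junctional proteins. Steady laminar flow is known to act through the kinases MEKK3 and ERK5 and the factor MEF2 to raise KLF2 and KLF4, which in turn raise vasodilator and anticoagulant genes. PIEZO1 and TRPV4 let calcium enter on mechanical stimulation, the polycystins form a receptor and channel complex that is best known from primary cilia, and ALK1, with its ligands BMP9 and BMP10, is itself known to act together with flow signals in endothelium.

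Acvrl1 went against the label. It stood at 127 ± 8.71 CPM (counts scaled to a common library size, SD, n = 5) in the control libraries and 247 ± 6.95 CPM (SD, n = 5) in those labelled Alk1-HEC-KO, a log2 fold change of 0.96 ± 0.05 (SE, edgeR adjusted p = 1.74e-07). Gene totals do not show which exons were read, so the label is kept as the name of the group and each direction below is one between labels. Totals ran from 23489494 to 23602771 estimated counts. Endothelial markers were present in every library. Their summed level over 10 genes was 18760 to 21196 CPM in controls and 15036 to 16541 CPM in the libraries labelled Alk1-HEC-KO. At an edgeR adjusted p under 0.05, 70% of the 10 changed, against 19.7% of all genes tested. In that group 5 fell, the sinusoidal markers Stab1, Stab2, Clec4g and Oit3 and the general endothelial marker Tek. The 2 that rose were the general markers Pecam1 and Tie1. The share of mitochondrial transcripts was 4.27 to 6.43% and 3.45 to 4.32%. Markers of bile duct cells summed to 189.7 to 273 CPM in controls and 374 to 634 CPM in the other group, and those of hepatocytes to 472 to 1769.9 and 436 to 1026 CPM, highest in control 4. In such bulk samples, fewer cells of a type and less RNA per cell cannot be told apart.

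The promoters of the 5 genes that were compared with each other within libraries, the 3 KLF genes and the 2 polycystin genes, are printed first, since the results below set these relatives against each other. Each run covers positions −250 to −51 from the start of the gene in RefSeq (GRCm38.p6) and reads 5′ to 3′ on the strand of the gene. Capitals mark the motif matches found by a search of both strands of positions −250 to +50: a MEF2 motif (CTA, any 4 bases, then TAG), a KLF box (CACCC, or GGGTG on the other strand) and a SMAD1/5 motif (GGCGCC). The windows are chr8:72318812-72319011 (plus strand) for Klf2, chr4:55532526-55532725 (minus strand) for Klf4, chr13:5861239-5861438 (plus strand) for Klf6, chr17:24549700-24549899 (plus strand) for Pkd1 and chr5:104459207-104459406 (plus strand) for Pkd2.
Klf2: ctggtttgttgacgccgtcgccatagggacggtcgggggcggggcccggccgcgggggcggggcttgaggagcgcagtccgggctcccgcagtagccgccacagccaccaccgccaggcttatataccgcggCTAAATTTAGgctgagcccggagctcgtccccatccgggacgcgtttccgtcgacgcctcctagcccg
Klf4: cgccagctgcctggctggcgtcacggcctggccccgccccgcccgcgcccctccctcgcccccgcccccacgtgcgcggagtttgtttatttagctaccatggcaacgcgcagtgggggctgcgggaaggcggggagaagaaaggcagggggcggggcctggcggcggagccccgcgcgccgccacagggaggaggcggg
Klf6: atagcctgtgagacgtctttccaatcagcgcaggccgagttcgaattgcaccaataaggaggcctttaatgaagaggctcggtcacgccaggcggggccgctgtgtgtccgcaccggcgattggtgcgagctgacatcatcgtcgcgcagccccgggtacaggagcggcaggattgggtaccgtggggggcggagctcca
Pkd1: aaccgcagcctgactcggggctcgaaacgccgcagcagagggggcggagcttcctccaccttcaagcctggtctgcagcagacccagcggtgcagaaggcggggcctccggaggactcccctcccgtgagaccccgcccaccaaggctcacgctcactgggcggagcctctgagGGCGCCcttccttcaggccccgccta
Pkd2: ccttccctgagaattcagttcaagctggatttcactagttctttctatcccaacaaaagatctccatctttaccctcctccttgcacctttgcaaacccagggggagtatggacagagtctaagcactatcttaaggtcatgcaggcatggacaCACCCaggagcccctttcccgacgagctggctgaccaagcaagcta

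Klf2 was the only member with the MEF2 motif, as CTAAATTTAG with its first base at −118, and 3.69% of all 32851 promoter windows held a match. Klf4 and Klf6 held none of the 3 motifs in these windows. Of the 9 members, 6 had a KLF box, with 5 matches in Trpv4, 3 in Aqp1 and 1 each in Klf2, Piezo1, Pkd2 and Pi16, where 57.5% of all windows held at least 1. The SMAD1/5 motif was in Pkd1 at −76 and in Pi16 at −181 from the RefSeq start, and in 11.9% of all windows. Both matches lie downstream of the gene starts given by GENCODE, chr17:24549834 for Pkd1 and chr17:29317680 for Pi16. A match describes letters in a window and is not a measured site.

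The level of each gene per transcript length was taken from the deposited TPM values, which correct for length and depth. Aqp1 was by far the most abundant member, at 5539 ± 284 TPM in controls and 4928 ± 554 TPM in libraries labelled Alk1-HEC-KO (SD, n = 5 each), and its median rank among all genes of a library was 18 in both groups. Klf2 followed with 467 ± 80.9 and 489 ± 116 TPM. Klf4, Klf6, Piezo1, Pkd1 and Pkd2 lay together, between 53.1 and 26.4 TPM on average in controls and between 86.8 and 31.9 TPM in the other group. Pi16 and Trpv4 were the lowest, at 4.74 and 1.62 TPM in controls and 11.3 and 2.68 TPM in libraries labelled Alk1-HEC-KO.

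The order of the means was the same in both groups, but some neighbours did not differ beyond their spread. Klf4 exceeded Klf6 in 3 of 5 libraries of either group. In controls the ranges of Klf6 and Piezo1, of Piezo1 and Pkd1, and of Pkd1 and Pkd2 also overlapped, although the first of each pair was higher in 5 of 5 libraries. In the libraries labelled Alk1-HEC-KO, Klf6 separated from Piezo1 and Pkd1 from Pkd2 without overlap, whereas Piezo1 exceeded Pkd1 in 4 of 5 libraries with overlapping ranges.

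**Figure D1:**
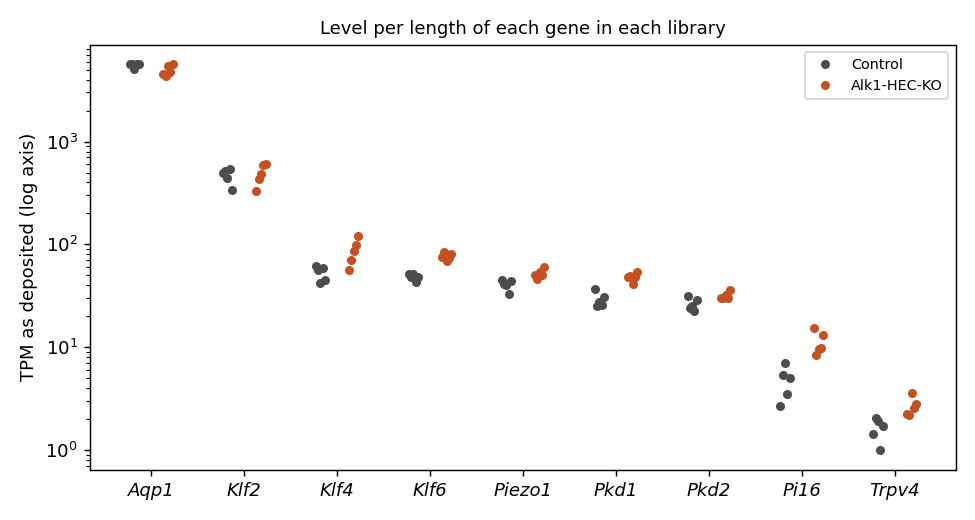
Deposited TPM on a log axis for each of the 9 genes, with 1 point per library, controls in grey and libraries labelled Alk1-HEC-KO in orange. Aqp1 is the most abundant at 4341 to 5679.9 TPM, Klf2 overlaps between groups, and Trpv4 is lowest, at 0.995 to 3.59 TPM.

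Between the groups, 7 of the 9 genes passed an edgeR adjusted p of 0.05. Klf4, Klf6, Piezo1, Trpv4, Pkd1 and Pi16 rose in the libraries labelled Alk1-HEC-KO, Aqp1 fell, and Klf2 and Pkd2 did not pass. Over all 15043 genes the same test called 19.7%, with 10.6% of all genes higher and 9.08% lower in the group labelled Alk1-HEC-KO. The share of members called was 77.8%. Because the members were chosen with earlier results of these data known, this comparison cannot show an excess of calls among them. The same holds for the related lists below. The median log2 fold change was 0.56 over the members and 0.00 over all genes. All 5 libraries of 1 group lay outside the range of the other for 5 members, Klf6, Trpv4, Pkd1 and Pi16 on the higher side and Aqp1 on the lower, and for 15.4% of all genes.

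Fewer members passed when control 4 and Alk1-HEC-KO 5 were left out together: 2 rose and 1 fell. There 1945 of 15107 genes passed, against 2959 of 15043 with all libraries. Control 4 had the highest summed hepatocyte markers, 1769.9 CPM. Control 2, which was kept, was close at 1679.5 CPM and higher in their mean log2 CPM, 6.70 against 6.60. Alk1-HEC-KO 5 had the highest level of immediate-early genes. With the mean log2 CPM of hepatocyte markers added to the fit, 2 members, Klf6 and Pkd1, passed, and 1534 of all 15043 genes did. In that fit the log2 fold changes of Klf4 (0.62), Pi16 (1.17) and Aqp1 (−0.28) were about as large as without the term, that of Trpv4 was 0.50, and those of Piezo1 (0.14) and Pkd2 (0.04) were smaller.

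**Figure D2:**
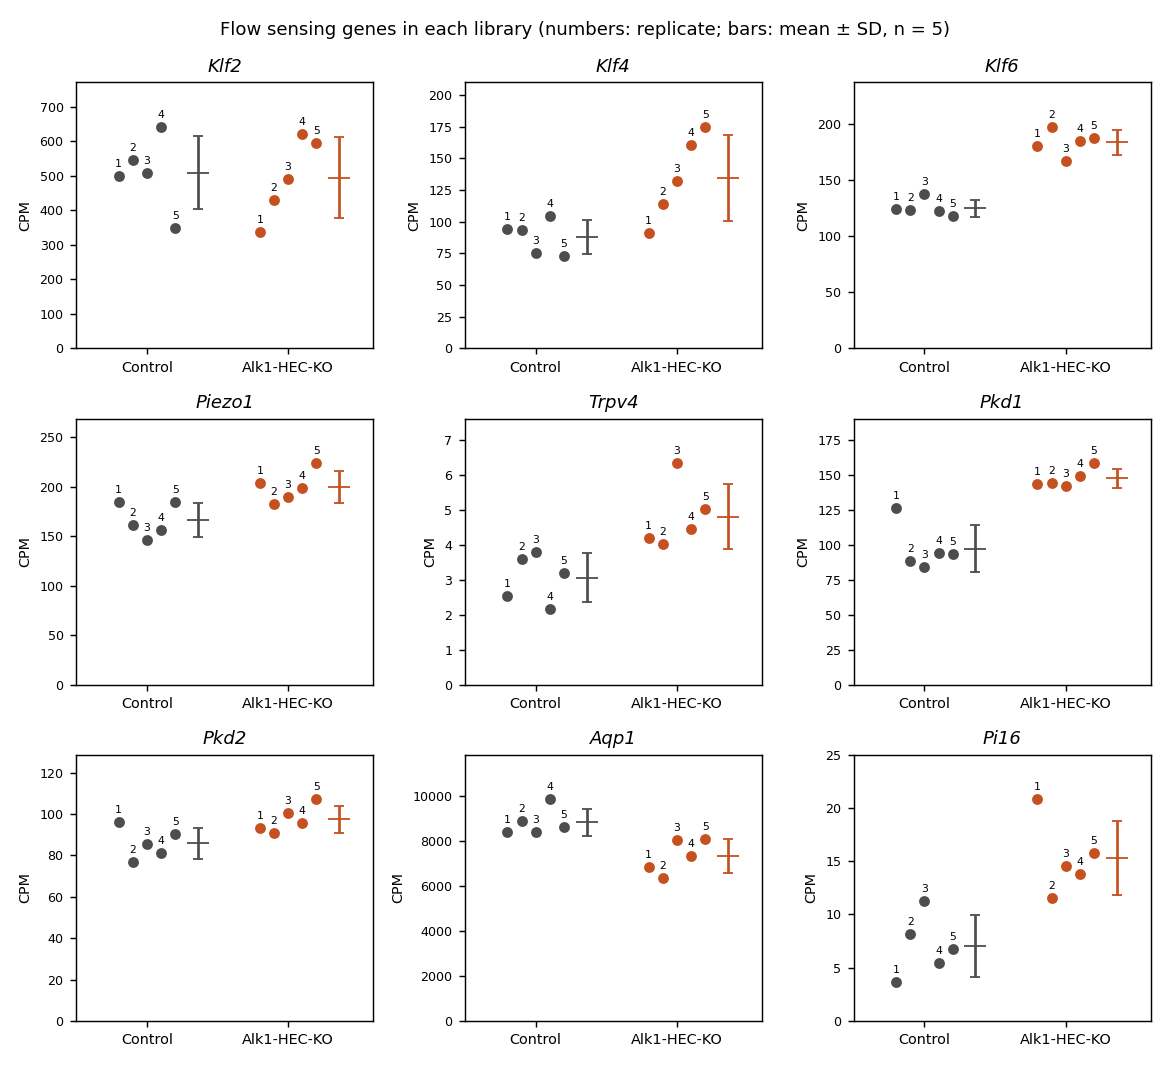
CPM of each gene in each library (points, numbered by replicate) with the mean ± SD (bars, n = 5), each panel on its own axis from 0. The groups do not overlap for Klf6, Trpv4, Pkd1, Aqp1 and Pi16, and control 1 stands apart from the other controls for Pkd1.

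**Figure D3:**
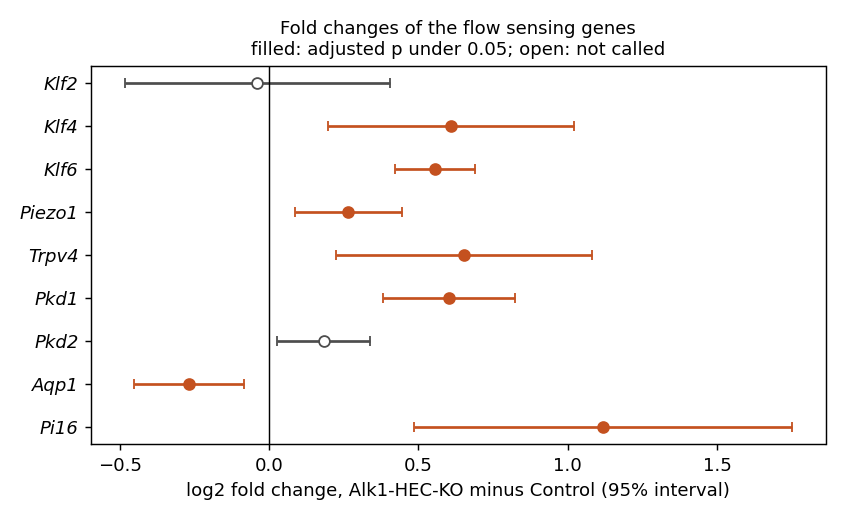
log2 fold change of each gene between libraries labelled Alk1-HEC-KO and controls with a 95% interval computed from the edgeR fit. Points are filled where the edgeR adjusted p was under 0.05. The intervals of Klf6 (0.42 to 0.69) and Pkd1 (0.38 to 0.82) lie well above 0, whereas that of Klf2 spans it.

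Among the transcription factors, Klf4 and Klf6 rose by about the same amount and Klf2 did not pass the test. Klf2 (ENSMUSG00000055148.7, chr8:72319033-72321656, plus strand, GRCm38), the best known factor induced by laminar flow in endothelium, was at 499, 546, 508, 642 and 349 CPM in controls 1 to 5 and at 338, 429, 491, 620.4 and 595 CPM in Alk1-HEC-KO 1 to 5. The 2 ranges covered nearly the same values, with a low library in each group, control 5 and Alk1-HEC-KO 1. Mean Klf2 was 508 ± 106 CPM against 495 ± 117 CPM in the other group (SD, n = 5 each), and the log2 fold change was −0.04 ± 0.19 (SE, edgeR adjusted p = 0.916). Its 95% interval, −0.48 to 0.40, does not show that the groups had equal Klf2.

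Klf4 (ENSMUSG00000003032.8, chr4:55527143-55532466, minus strand), which overlaps with KLF2 in its targets in endothelium, was at 94.0, 93.7, 75.3, 105 and 73.2 CPM in controls and at 91.2, 114, 132, 160.4 and 175 CPM in Alk1-HEC-KO 1 to 5. Alk1-HEC-KO 1 lay inside the control range and the other 4 libraries above it. Mean Klf4 rose 1.53-fold, from 88.2 ± 13.5 to 135 ± 34.0 CPM (SD, n = 5 each; log2 fold change 0.61 ± 0.18 SE, edgeR adjusted p = 0.0379). The call was lost when control 1, 2, 3 or 5 or Alk1-HEC-KO 3, 4 or 5 was left out (edgeR adjusted p = 0.0616 to 0.0835).

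Klf6 (ENSMUSG00000000078.7, chr13:5861482-5870394, plus strand) encodes a related zinc finger factor that is known to be induced in endothelium after vascular injury. It was at 124, 123, 138, 122 and 118 CPM in controls and at 181, 198, 168, 185 and 188 CPM in Alk1-HEC-KO 1 to 5. The lowest Alk1-HEC-KO library stood above the highest control, and the SD was 6.06% of the mean in controls and 6.05% in the other group. The rise was 1.47-fold, from 125 ± 7.58 to 184 ± 11.1 CPM (SD, n = 5 each; log2 fold change 0.56 ± 0.06 SE, edgeR adjusted p = 2.71e-05), and it passed in every alternative fit that was run.

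Within a library, Klf4 and Klf6 stood closer to Klf2 in the group labelled Alk1-HEC-KO. These differences use the same counts as above and lend no separate support to the rises of Klf4 and Klf6. The log2 CPM of Klf4 minus that of Klf2 was −2.41, −2.54, −2.75, −2.62 and −2.25 in controls 1 to 5 and −1.89, −1.91, −1.89, −1.95 and −1.76 in Alk1-HEC-KO 1 to 5, with no overlap. The means of this difference were −2.51 ± 0.19 and −1.88 ± 0.07 (SD, n = 5 each), 0.63 apart (exact two-sided permutation p = 0.00794, the smallest that 5 against 5 can give, and 0.0119 after Benjamini-Hochberg adjustment over the 3 differences tested). Klf2 and Klf4 were both lowest in Alk1-HEC-KO 1 and highest in Alk1-HEC-KO 4 and 5. The libraries of that group thus differed in level, while the difference between the genes varied little, from −1.95 to −1.76.

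For Klf6 minus Klf2 the means were −2.00 ± 0.31 and −1.39 ± 0.37 (SD, n = 5 each), 0.60 apart (exact two-sided permutation p = 0.0238, adjusted 0.0238). This difference lost its call without control 1, 2 or 4, at exact adjusted p-values of 0.0556, 0.0635 and 0.0635. In TPM, Klf2 was 8.78 times as abundant as Klf4 in controls and 5.63 times in the other group.

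Immediate-early and heat shock genes, which cell isolation is known to induce, were followed beside the KLF genes. The summed level of 16 such genes was 4700.3, 5136, 5277, 5139.8 and 4984 CPM in controls and 6414, 5008, 7308, 5063 and 8470.1 CPM in Alk1-HEC-KO 1 to 5. Libraries 1, 3 and 5 labelled Alk1-HEC-KO were above all controls and libraries 2 and 4 were not. With the mean log2 CPM of these genes in the fit, the log2 fold change of Klf4 was 0.51 and did not pass (edgeR adjusted p = 0.119), and that of Klf6 was 0.58 and passed (edgeR adjusted p = 0.000106). Of the 16 genes 2 rose and 0 fell, 12.5% against the 19.7% of all genes, with a median log2 fold change of 0.45. The 2 were the antiproliferative gene Btg2, by 0.54 ± 0.13 (log2, SE), and the chaperone gene Hspa8, by 0.48 ± 0.13, at edgeR adjusted p-values of 0.0141 and 0.0215.

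**Figure D4:**
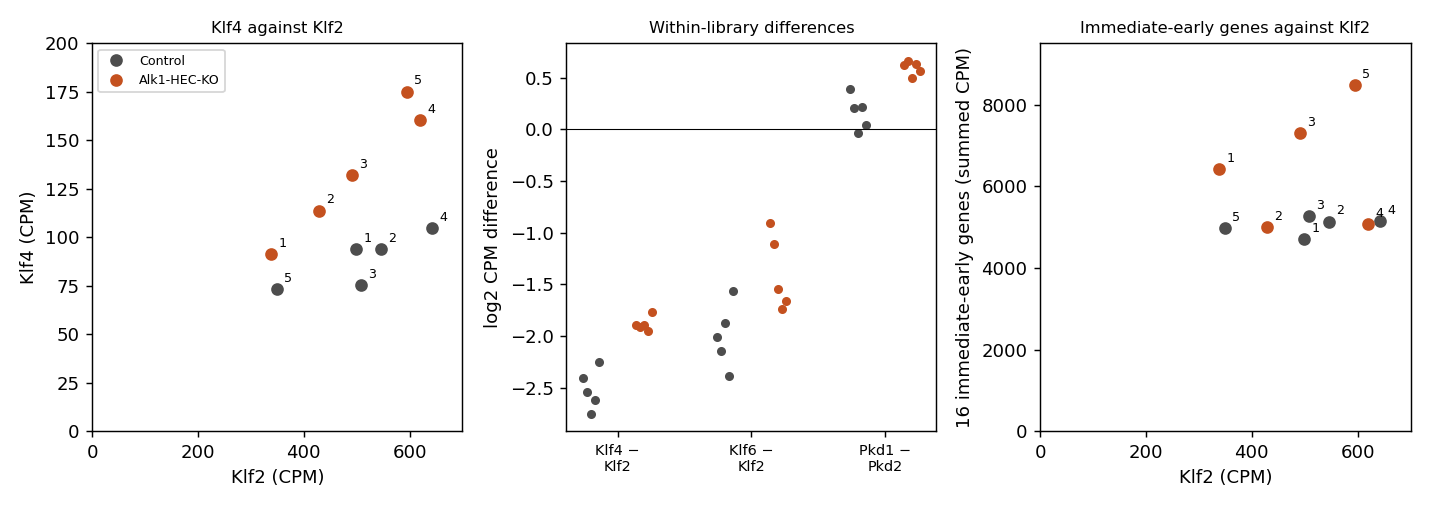
Klf4 against Klf2 in CPM (left), the log2 CPM differences between member pairs within each library (middle) and the summed CPM of 16 immediate-early genes against Klf2 (right), with controls in grey and libraries labelled Alk1-HEC-KO in orange. Klf4 minus Klf2 and Pkd1 minus Pkd2 do not overlap between the groups.

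Both mechanically activated channels rose. Piezo1 (ENSMUSG00000014444.17, chr8:122481698-122551329, minus strand), which encodes a channel opened by membrane tension, was at 185, 161, 146, 156 and 185 CPM in controls and at 204, 183, 190.0, 198.7 and 224 CPM in Alk1-HEC-KO 1 to 5. Alk1-HEC-KO 2 fell just inside the control range and the other 4 lay above it. The rise was 1.2-fold, from 166 ± 17.4 to 199.9 ± 15.8 CPM (SD, n = 5 each; log2 fold change 0.26 ± 0.08 SE, edgeR adjusted p = 0.0306). The call was lost without control 2, 3 or 4 or without Alk1-HEC-KO 1, 4 or 5 (edgeR adjusted p = 0.0546 to 0.08). Piezo1 shares 2441 exonic bases with Ctu2 on the other strand, and the sources used here do not say whether counting used strand. Ctu2 itself was at 18.9 and 18.6 CPM.

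Trpv4 (ENSMUSG00000014158.12, chr5:114622152-114658421, minus strand) encodes a calcium-permeable channel that responds to osmotic and mechanical stimuli. Its level was low, at 2.52, 3.60, 3.79, 2.16 and 3.20 CPM in controls and 4.19, 4.02, 6.34, 4.45 and 5.01 CPM in Alk1-HEC-KO 1 to 5, from totals of 354 and 574 counts over the groups. Each Alk1-HEC-KO library was above each control. The rise was 1.57-fold, from 3.05 ± 0.70 to 4.80 ± 0.94 CPM (SD, n = 5 each; log2 fold change 0.65 ± 0.19 SE, edgeR adjusted p = 0.0267), and it was lost without control 1 or 4 or Alk1-HEC-KO 3 or 5 (edgeR adjusted p = 0.058 to 0.0748).

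Of the 16 tested genes on a list of other mechanosensitive channels and genes related to them, 3 rose and 1 fell. That is 25% against the 19.7% of all genes, with a median log2 fold change of −0.04. Piezo2, the relative of Piezo1 best known from touch neurons, rose from 3.85 ± 0.97 to 12.7 ± 2.14 CPM (SD, n = 5 each; log2 fold change 1.72 ± 0.18 SE, edgeR adjusted p = 2.42e-05), with no overlap between groups. Lrrc8a, a subunit of volume-regulated anion channels, rose by 0.43 ± 0.07 (edgeR adjusted p = 0.00117) and Tmem63b by 0.25 ± 0.07 (edgeR adjusted p = 0.0333). Trpv3, a relative of Trpv4 chosen after its values were seen, fell from 2.89 ± 0.71 to 0.335 ± 0.12 CPM, a log2 fold change of −3.09 ± 0.28 (SE, edgeR adjusted p = 7.96e-06), so that the levels of Trpv3 and Trpv4 went opposite ways. Trpv3 passed the filter only through the controls, as the other group ranged from 0.164 to 0.501 CPM.

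Of the polycystins, Pkd1 rose and Pkd2 did not pass. Pkd1 (ENSMUSG00000032855.6, chr17:24549834-24596508, plus strand) encodes the large receptor-like polycystin. It was at 126, 88.4, 84.0, 94.5 and 93.1 CPM in controls and at 144, 144, 142, 149 and 159 CPM in Alk1-HEC-KO 1 to 5. Every Alk1-HEC-KO library exceeded control 1, which was itself well above the other 4 controls. The rise was 1.52-fold, from 97.2 ± 16.7 to 148 ± 6.77 CPM (SD, n = 5 each; log2 fold change 0.60 ± 0.10 SE, edgeR adjusted p = 0.000817), and without control 1 the log2 fold change was 0.71 (edgeR adjusted p = 6.63e-06). Pkd1 shares 693 exonic bases with Tsc2 on the other strand, and Tsc2 did not pass (log2 fold change 0.10 ± 0.05 SE, edgeR adjusted p = 0.206).

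Pkd2 (ENSMUSG00000034462.9, chr5:104459450-104505819, plus strand) encodes the channel subunit that pairs with the Pkd1 product. It was at 96.0, 76.8, 85.7, 81.1 and 90.2 CPM in controls and at 93.1, 91.0, 101, 95.9 and 107 CPM in Alk1-HEC-KO 1 to 5, with 2 of these, Alk1-HEC-KO 3 and 5, above the highest control. The log2 fold change was 0.18 ± 0.07 (SE, edgeR adjusted p = 0.0764), with a 95% interval of 0.03 to 0.34, and without control 1 it passed (edgeR adjusted p = 0.0311).

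The change of Pkd1 relative to Pkd2 was tested within libraries, on the same counts as above, so it lends no separate support to the rise of Pkd1. The log2 CPM of Pkd1 minus that of Pkd2 was 0.39, 0.20, −0.03, 0.22 and 0.05 in controls 1 to 5 and 0.63, 0.66, 0.50, 0.64 and 0.57 in Alk1-HEC-KO 1 to 5. The groups did not overlap, and their means, 0.17 ± 0.17 and 0.60 ± 0.07 (SD, n = 5 each), were 0.43 apart (exact two-sided permutation p = 0.00794, adjusted 0.0119).

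Of 14 genes of the polycystin family and the primary cilium, 2 rose and 1 fell, 21.4% against the 19.7% of all genes, which is near the background, with a median log2 fold change of −0.04. Pkhd1, which encodes fibrocystin, rose from 4.05 ± 0.59 to 9.67 ± 2.03 CPM (SD, n = 5 each; log2 fold change 1.25 ± 0.16 SE, edgeR adjusted p = 0.000116). Bicc1, an RNA-binding gene linked to cystic kidneys, rose by 0.91 ± 0.17 (edgeR adjusted p = 0.00232). Sec63, whose product acts in protein entry into the endoplasmic reticulum, fell by 0.18 on the log2 scale (edgeR adjusted p = 0.0385). Pkhd1 and Bicc1 are also known from bile duct cells, and 7 of 8 bile duct markers rose with a median log2 fold change of 1.11. Spp1, the most abundant of them, was at 197 ± 30.4 and 429 ± 88.8 CPM and Krt19 at 7.93 ± 1.75 and 14.2 ± 2.89 CPM (SD, n = 5 each), and the part of these cells in the polycystin results was not tested.

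Aqp1 (ENSMUSG00000004655.5, chr6:55336432-55348555, plus strand), the main water channel of endothelium, was the member that fell. It was at 8394, 8866, 8393, 9844 and 8619.6 CPM in controls and at 6831, 6359, 8043, 7302 and 8093 CPM in Alk1-HEC-KO 1 to 5. All 5 Alk1-HEC-KO libraries were below all controls, by a narrow gap between Alk1-HEC-KO 5 and control 3. Mean Aqp1 was 1.2-fold lower, with 8823 ± 603 CPM in controls against 7326 ± 756 CPM (SD, n = 5 each; log2 fold change −0.27 ± 0.08 SE, edgeR adjusted p = 0.0333). The call was lost without control 2, 4 or 5 or Alk1-HEC-KO 1, 2 or 4 (edgeR adjusted p = 0.0529 to 0.0789), and on log2(TPM + 1), where limma gave an adjusted p of 0.143.

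Of the 11 other aquaporin genes in the list, 3 were abundant enough to test. Aqp9, a channel for water and glycerol of hepatocytes, fell by 2.57 on the log2 scale (edgeR adjusted p = 0.0291). Its controls spread from 1.58 to 18.1 CPM and overlapped with the other group, 0.418 to 2.60 CPM. Of 10 hepatocyte markers 3 fell and 0 rose, 30% called against 19.7% of all genes (9.08% lower), with a median log2 fold change of −1.18. The part of hepatocytes in the fall of Aqp9 was not tested. Aqp7, a glycerol channel chosen after its values were seen, rose from 0.226 ± 0.081 to 1.61 ± 0.61 CPM (SD, n = 5 each; log2 fold change 2.81 ± 0.35 SE, edgeR adjusted p = 0.000109), from totals of 26 and 192 counts. Its controls, at 0.126 to 0.315 CPM, were below the level needed to pass the filter. Aqp7 was thus tested only through the group where it was higher, and its p-value lends no separate support.

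Pi16 (ENSMUSG00000024011.17, chr17:29317680-29330593, plus strand), which encodes a CAP domain protein known to respond to flow in endothelium and also to mark some fibroblasts, had the largest fold change of the 9. It was at 3.61, 8.19, 11.3, 5.44 and 6.74 CPM in controls and at 20.8, 11.5, 14.5, 13.8 and 15.8 CPM in Alk1-HEC-KO 1 to 5. The groups did not overlap, although Alk1-HEC-KO 2 stood only just above control 3. The rise was 2.17-fold, from 7.05 ± 2.90 to 15.3 ± 3.46 CPM (SD, n = 5 each; log2 fold change 1.12 ± 0.27 SE, 95% interval 0.48 to 1.75, edgeR adjusted p = 0.0167), from totals of 815 and 1829 counts. Pi16 shares 222 exonic bases with the antisense gene AC162182.1.

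The call of Pi16 held when any 1 library was left out (edgeR adjusted p at most 0.0478) and was lost without a filter on low counts (0.0641), with the immediate-early covariate (0.0603), with the hepatocyte covariate (0.0998) and without control 4 and Alk1-HEC-KO 5 together (0.0897), at log2 fold changes of 0.93 to 1.17. Of 11 stellate cell and fibroblast markers 2 rose and 1 fell, 27.3% against 19.7% of all genes, with a median log2 fold change of 0.28. Their summed levels were lower in the group labelled Alk1-HEC-KO, 876 to 1138 CPM against 1238 to 1573 CPM in controls. Their mean log2 CPM, in which abundant markers weigh less, tended the other way. It was 3.26 to 3.79 in that group and 2.91 to 3.58 in controls, with overlap. Of 6 mesothelial markers 2 rose, or 33.3%, with summed levels of 50.7 to 90.4 CPM in controls and 70.1 to 132 CPM in the other group. The part of these cells in the rise of Pi16 was not tested. None of the 3 tested CAP domain relatives of Pi16 passed in edgeR at an unadjusted p under 0.05 either: the 2 with the smallest p were Crispld2, with a log2 fold change of 0.69 ± 0.32 (SE, edgeR adjusted p = 0.161), and Glipr1, with 0.41 ± 0.23 (edgeR adjusted p = 0.243).

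Several other KLF genes rose as Klf4 and Klf6 did. Of 10 other members tested, 5 rose and 0 fell, 50% called against 19.7% of all genes (10.6% higher), with a median log2 fold change of 0.41. Klf12, a repressor, rose from 5.03 ± 1.17 to 14.9 ± 1.63 CPM (SD, n = 5 each; log2 fold change 1.56 ± 0.15 SE, edgeR adjusted p = 1.53e-05). Klf11 rose by 0.58 ± 0.09, Klf15 by 0.50 ± 0.15 and Klf13 by 0.48 ± 0.07 on the log2 scale (SE), at edgeR adjusted p-values of 0.000654, 0.0346 and 0.000541, and the fifth was Klf9. The summed level of all 14 genes of the list, 4 of them too low to test, was 719.9 to 808 CPM in controls and 837 to 942 CPM in libraries labelled Alk1-HEC-KO, without overlap.

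The cascade upstream of Klf2 and Klf4 was examined next. Of 14 genes of the MEKK3, ERK5 and MEF2 cascade and the CCM complex that restrains it, 2 rose and 1 fell, 21.4% against the 19.7% of all genes, which is near the background. Mef2c rose by 0.33 ± 0.08 and Mef2a fell by 0.21 on the log2 scale (edgeR adjusted p = 0.013 and 0.0385). Hdac5, a repressor of MEF2 factors, rose from 109.6 ± 6.40 to 144 ± 4.44 CPM (SD, n = 5 each; log2 fold change 0.40 ± 0.05 SE, edgeR adjusted p = 0.000135).

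Junctional and receptor flow sensors changed in both directions, 4 up and 3 down of 15, or 46.7% against 19.7% of all genes. S1pr1, the endothelial sphingosine 1-phosphate receptor, rose 1.95-fold from 229.6 ± 24.5 to 447 ± 42.3 CPM (SD, n = 5 each; log2 fold change 0.96 ± 0.08 SE, edgeR adjusted p = 6.96e-06). Plxnd1, a semaphorin receptor that also senses shear, rose by 0.52 ± 0.07 (log2, SE), whereas the VEGF receptor gene Kdr fell by 0.33 and the ATP-gated channel gene P2rx4 fell by 0.36 on the log2 scale, at edgeR adjusted p-values of 0.000179, 0.00436 and 0.000253. Another ATP receptor gene went the other way: P2ry2, chosen after its values were seen, rose from 1.06 ± 0.20 to 6.85 ± 1.65 CPM (log2 fold change 2.68 ± 0.20 SE, edgeR adjusted p = 1.74e-06).

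Genes known to be induced by laminar flow, many of them targets of KLF2 or KLF4, did not move one way: of 15, 4 rose and 5 fell, 60% against 19.7% of all genes, with a median log2 fold change of 0.19. The largest changes were of Cyp1b1, which fell from 45.7 ± 7.95 to 6.08 ± 1.85 CPM (log2 fold change −2.91 ± 0.20 SE, edgeR adjusted p = 3.48e-06), and of the chemokine receptor gene Cxcr4, which rose from 7.75 ± 3.18 to 38.3 ± 8.25 CPM (SD, n = 5 each; log2 fold change 2.30 ± 0.28 SE, edgeR adjusted p = 0.00039). The quinone reductase gene Nqo1 fell by 1.27 and the cyclooxygenase gene Ptgs1 by 1.10 on the log2 scale (edgeR adjusted p = 5.55e-05 and 6.78e-07).

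Of 13 genes linked to low or disturbed flow, 1 rose and 3 fell, 30.8% against 19.7% of all genes, with a median log2 fold change of −0.31. Selp, Bmp4 and Edn1 fell by 3.32, 2.45 and 0.96 on the log2 scale (edgeR adjusted p = 0.000338, 6.96e-06 and 0.0161).

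**Figure D5:**
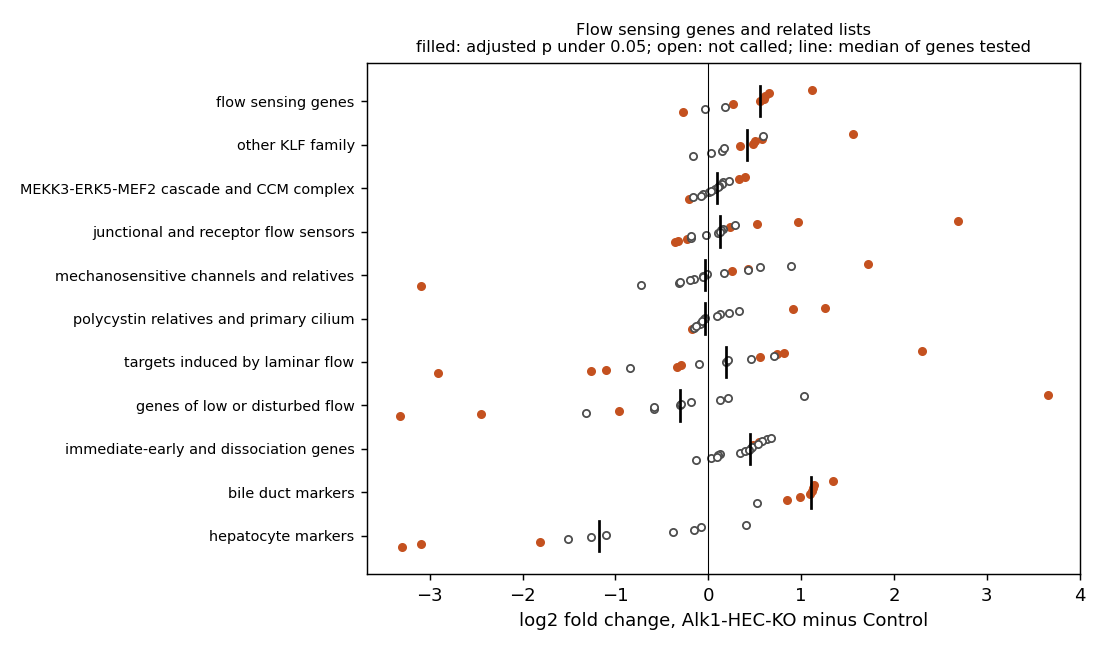
log2 fold change of each tested gene of the flow sensing set, of related lists and of bile duct and hepatocyte markers, filled where the edgeR adjusted p was under 0.05, with a line at each median. Of the other KLF genes 5 of 10 rose and 0 fell, whereas laminar flow targets spread from −2.91 to 2.30.

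Genes whose pattern over the 10 libraries was most like that of a member were sought among 10222 genes by the root mean square difference of log2 CPM after each gene was centred on its mean, and the nearest 2 are given. Klf6 was nearest to Timeless and Swap70, both at 0.0808, where its own root mean square deviation was 0.288. Pkd1 was nearest to Nin (0.0699) and St3gal2 (0.0813) with a deviation of its own of 0.342, and Piezo1 to Spen (0.0520) and Nbea (0.0581) with 0.179. Pkd2 was nearest to Zeb1 (0.0391) and Ubap2 (0.0484) with 0.136, and Aqp1 to Man2b1 (0.0460) and Mtfmt (0.0608) with 0.177.

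The other members had no partner at so small a difference, a measure that is not scaled to a gene's own deviation. Klf4 was nearest to Dock9 (0.201) and Rasgrf2 (0.208) where its own deviation was 0.404, Klf2 to Nr2c2ap (0.161) and Sco2 (0.187) with 0.306, and Pi16 to Snx20 (0.250) and Oas2 (0.283) with 0.732. Klf2 and Klf4 were not among the nearest genes of each other. Trpv4 was left out, with a mean under 5 CPM.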

How the data were processed

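Per the submitters' processing notes, Trim Galore 0.6.4 and kallisto 0.4.6 were used with the GRCm38.p6 assembly. The authors deposited expected counts, which can be fractional, and TPM per gene for each of 10 libraries. The sources used here do not say how transcripts were summed to genes or whether strand was used. Symbols and coordinates came from GENCODE M21 by stable identifier, which matched 55144 of 55385 genes. Groups came from the sample titles.

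Expected counts were rounded, and edgeR 4.0.16 was run in R 4.3.3: filterByExpr with a minimum count of 10, TMM scaling, a robust quasi-likelihood test of genotype and Benjamini-Hochberg adjustment over 15043 genes at 0.05. CPM used TMM-scaled library sizes, and log2 CPM a prior count of 2. The SE of a log2 fold change was its absolute value over the square root of the edgeR F statistic. The 95% intervals used this SE with 8 degrees of freedom, so they need not match the edgeR p-values. Totals of 23489494 to 23602771 counts leave little counting error except for genes such as Trpv4. Within-library differences were tested by exact two-sided permutation over 252 assignments. Each set a member that passed in edgeR against one that did not, so these tests are not separate from those calls. Replicates differed by more than sampling noise (chi-square per degree of freedom 10.38 to 29.62 over 20 pairs). The procedure was tested on simulated data.

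The members and the 21 lists were chosen with earlier results of these data known. Named were the members, Acvrl1, per list of flow or family genes up to 4 called genes of largest fold change with a mean of at least 5 CPM (or the 2 of smallest p) and, per member of at least 5 CPM, the 3 genes of most similar pattern, of which 2 are printed. A gene that this rule names is not reported here. Alternatives were DESeq2 1.42.0, limma 3.58.1 (voom, and log2 TPM with a pseudocount of 1 or 0.1), other scaling and filters, transcript length offsets, a replicate block, immediate-early or hepatocyte covariates and each library left out. A fit without control 4 and Alk1-HEC-KO 5 was chosen after seeing the data.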

Additional observations from a re-analysis of the deposited data

Results flagged for a closer look

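Of the 24 groups of 5 values examined, 1 held a library far from the others, and chance flags about 1 group in 20. Pkd1 was at 126 CPM in control 1, whereas the next highest control was at 94.5 CPM, and this gap was 0.751 of the range of the controls. Every library labelled Alk1-HEC-KO was still above control 1.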

How the results depend on the processing

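Of 24 alternatives, all but 2 kept the number of genes called within 1.5 times of 2959: the hepatocyte covariate gave 1534 and the fit without control 4 and Alk1-HEC-KO 5 gave 1945. Leaving out single libraries gave 2315 to 2870. The number of members called, 7, was 4 with a replicate block, 3 with the immediate-early covariate, 2 with the hepatocyte covariate, 3 without control 4 and Alk1-HEC-KO 5, and 4 to 6 with single libraries left out. The cause was not tested. Klf6 and Pkd1 passed in all 24. Klf4 did not pass without a filter (adjusted p = 0.125), with transcript length offsets (0.064) or with the hepatocyte covariate (0.213), at log2 fold changes of 0.60, 0.60 and 0.62. Trpv4 did not pass with length offsets (0.0542) or the immediate-early covariate (0.0941), and Piezo1 not with the immediate-early covariate (0.115).

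Klf2 changed sign with library size alone (0.012), log2(TPM + 1) (0.0513), log2(TPM + 0.1) (0.0514) and the hepatocyte covariate (0.13), without passing, and lay between −0.15 and 0.065 with single libraries left out: 0.058 without control 4, 0.065 without Alk1-HEC-KO 1 and 0.0012 without Alk1-HEC-KO 2. Klf6 minus Klf2 lay between 0.48 and 0.71 with single libraries left out. Klf4 minus Klf2 and Pkd1 minus Pkd2 passed in all 12 alternatives run for them.

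The labels give no link between libraries of the same replicate number beyond that number. Deviations from the group means correlated between such libraries at −0.196, 0.35, 0.0147, 0.108 and 0.284. Of the controls only replicate 2 correlated best with its own number. Whether the numbers mark pairs or batches cannot be told from these values. With the replicate block 2567 genes and 4 members were called. Klf4, Aqp1 and Pi16 did not pass there (adjusted p = 0.0975, 0.0598 and 0.0664), at log2 fold changes of 0.59, −0.27 and 1.17. Depth limits Trpv4 most, with 48 to 150 counts per library.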
